A study of Homo sapiens with 25 samples.

Results

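IGF2BP1 mutants Y396E and S181E were compared directly under control conditions, by the mRNAs each protein brought down from HCT116 cells. Of the 25 RNA immunoprecipitation sequencing (RIP-Seq) libraries of the series, 6 were chosen by their labels, 3 of each mutant. The other libraries of the tagged lines, with and without arsenite, entered the filter, the scaling and the estimate of the spread. All of the other 19 libraries served as references or as the arsenite contrast where named. HCT116 is a human colorectal carcinoma cell line. The S181E and the Y396E cells carried mCherry-IGF2BP1 with the respective mutation, had IGF2BP2 and IGF2BP3 knocked out and held the Tet-OsTIR1-PURO insertion, and they received PBS in place of sodium arsenite. The wild-type (WT) and RQ mCherry-IGF2BP1 cells used beside them had the same knockouts and insertion, the arsenite samples received 500 µM sodium arsenite for 2 hours, and the parental cells gave 1 library per treatment. The paper calls the parental cells nonengineered HCT116, so they may differ from the tagged lines in more than the tag. The tagged proteins were introduced with lentivirus, and for RIP-Seq each line was a sorted population of similar mCherry signal rather than a clone. A mutation and the population that carried it cannot be told apart. Dishes of each line were plated and grown independently. The total RNA of the same lysates was not analysed here, so more binding and more RNA in the cell cannot be told apart in any value below.

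IGF2BP1 is a cytoplasmic RNA-binding protein with a pair of RRM domains and 4 KH domains, joined by disordered linkers. It is known for keeping oncofetal mRNAs such as HMGA2 from decay in tumour cells. S181 lies in linker 1, between the RRM and the KH domains, and Y396 lies in linker 2, between the KH domain pairs. Both residues can be phosphorylated, and a glutamate in their place imitates the negative charge of the phosphate. S181E and Y396E each differ from the wild-type protein by 1 residue, in different linkers. RQ has arginines of linker 1 replaced by glutamine.

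HMGA2, an architectural chromatin protein of embryonic and tumour cells, is the textbook IGF2BP1 target whose 3′UTR is also the textbook target of the let-7 microRNAs. These sequences are shown because HMGA2 was the most abundant listed IGF2BP1 target that differed between the mutants. The mature let-7a sequence from RefSeq is printed with its seed, bases 2 to 8, in capitals.
hsa-let-7a-5p: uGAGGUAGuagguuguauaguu
The 3′UTR of the HMGA2 reference transcript, 2999 bases long on the plus strand of chromosome 12 in hg38, held 4 exact matches to this seed (CTACCTC, searched on the mRNA strand only). They are printed in capitals within 30 bases of the genome.
HMGA2 site 1, chr12:65963298-65963327: gccaacgttcgatttCTACCTCagcagcag
HMGA2 site 2, chr12:65964533-65964562: ccccactactcaataCTACCTCtgaatgtt
HMGA2 site 3, chr12:65964945-65964974: ttgacttgcaaagacCTACCTCcagacttc
HMGA2 site 4, chr12:65965798-65965827: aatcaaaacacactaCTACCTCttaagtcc
Among the 8734 genes tested, 926 had 1 such match, 137 had at least 2 and 7671 had none.

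The 6 libraries held 23063983 to 39499274 counts, of which 63.0% to 66.6% fell on protein-coding genes and 31.8% to 35.5% on mitochondrial rRNA. Between 12580 and 13960 protein-coding genes had a count in a library. Levels are given as TMM-scaled CPM, the share of a gene in the protein-coding counts of its library. Before the TMM scaling 3 counts correspond to 0.121 to 0.196 CPM. The cell line markers were those of a colon carcinoma, with 7 of 8 epithelial markers above 10 CPM in both groups. Their summed level was 816 to 1031 CPM in S181E and 1135 to 1411 CPM in Y396E, whereas VIL1 was at or near 0. Of the 15 fibroblast, leukocyte and endothelial markers none reached 10 CPM, and COL1A2, COL3A1, DCN, LUM and PTPRC were at 0 in all 6 libraries. The point mutations themselves cannot be read from gene counts, but IGF2BP1 mRNA was at 0 in both parental libraries and present in every library of the tagged lines.

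Y396E brought down a moderately different set of mRNA levels than S181E. In edgeR's quasi-likelihood test, with changes over 20% counted at a Benjamini-Hochberg threshold of 0.05, 333 genes were higher in Y396E (3.81% of 8734) and 632 were lower (7.24%). Most differences were small. The genes that were higher had a median log2 fold change of 0.50 (1.41-fold), and the genes that were lower had one of -0.47 (1.39-fold). Only 2 of the former and 3 of the latter reached 2-fold. All 3 Y396E values lay above all 3 S181E values for 1268 genes (14.5%) and below them for 1547 (17.7%), and this held for 329 of the genes called higher (3.77% of all genes) and 604 of those called lower (6.92%).

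The balance between the directions depended on the scaling and on the replicate block, whereas a set of genes was called under all 4 scalings. Of the main calls, 65.5% were lower in Y396E. With libraries scaled to their total counts 716 genes were higher and 345 lower (32.5% lower), and with TMM computed from background genes, those no higher in the tagged lines than in the parental cells, 71 were higher and 988 lower (93.3% lower). The median over all genes, 0.01 on the log2 scale, became 0.12 and -0.15, respectively. Through all of the scalings, with DESeq2 size factors as the fourth, 71 genes stayed called higher and 345 stayed called lower. These are the smallest counts that any of the scalings gave in each direction. With the adjustment for GC content described below as well, 22 and 150 stayed called. In the main fit and all 6 fits that left out 1 library, 47 and 132 stayed called. The same-numbered libraries of the mutants deviated together. With the replicate number as a block, in a fit of the 6 libraries alone, 1272 genes were higher and 1146 lower (47.4% lower). The 71 and 345 were among them. Without the block, a fit of the same 6 libraries gave 132 and 238 (64.3% lower). Leaving out 1 library moved the counts as well. Without Y396E replicate 2 they were 51 higher and 136 lower, and without Y396E replicate 1 they were 192 and 362. Without S181E replicate 3 they were 135 and 227, and without S181E replicate 1 they were 158 and 335. List medians below are read against the median of all genes, since a scaling moves both.

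HMGA2 was lower in Y396E. It stood at 2768, 2351 and 2868 CPM in the S181E libraries (2662 ± 274, SD) and at 1663, 1422 and 1738 CPM in the Y396E libraries (1607 ± 165). Every Y396E library lay below every S181E library (log2 fold change -0.72 ± 0.11, SE, adjusted p = 0.000483). Wild-type stood at 3011 ± 337 CPM, from which Y396E differed (log2 fold change -0.94, adjusted p = 1.45e-06) and S181E did not pass the test (-0.22, adjusted p = 0.165).

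Of 11 tested mRNAs from a literature list of IGF2BP1 targets, 2 were lower (18.2%, beside 7.24% of all genes), HMGA2 among them. None was higher, and the median log2 fold change was 0.10 beside 0.01 over all genes. MYC, the proto-oncogene whose coding region IGF2BP1 is known to shield, did not pass the test, with 584, 569 and 481 CPM in S181E and 557, 616 and 699 CPM in Y396E. The ranges overlapped (log2 fold change 0.20 ± 0.09, adjusted p = 0.151). ACTB, the beta-actin mRNA whose zipcode defined the IGF2BP family, was at 894, 1125 and 784 CPM in S181E and at 1089, 1287 and 1270.0 CPM in Y396E. S181E replicate 2 overlapped the Y396E range, and ACTB missed the threshold (log2 fold change 0.38, adjusted p = 0.107) but passed it with the replicate block (0.42, adjusted p = 0.000311).

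The mRNAs of the IGF2BP family itself were also read. IGF2BP1 mRNA, carried by the transgene, stood at 65.9, 68.0 and 65.1 CPM in S181E and at 98.7, 109 and 71.4 CPM in Y396E. The Y396E libraries were all higher, with replicate 3 close to the S181E range (log2 fold change 0.50 ± 0.12, adjusted p = 0.0111). Without Y396E replicate 2 this call was lost (0.36, adjusted p = 0.11). IGF2BP2, whose gene is knocked out in these lines, still gave counts, at 235, 219 and 273 CPM in S181E and at 187, 161 and 219 CPM in Y396E. Its highest Y396E library lay just below its lowest S181E library, and it missed the threshold (log2 fold change -0.35, adjusted p = 0.0911) but passed with the block (-0.34, adjusted p = 0.000929). IGF2BP3 was at 401 to 429 CPM in S181E and at 363 to 394 CPM in Y396E and did not pass the test (-0.14, adjusted p = 0.214).

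**Figure D1:**
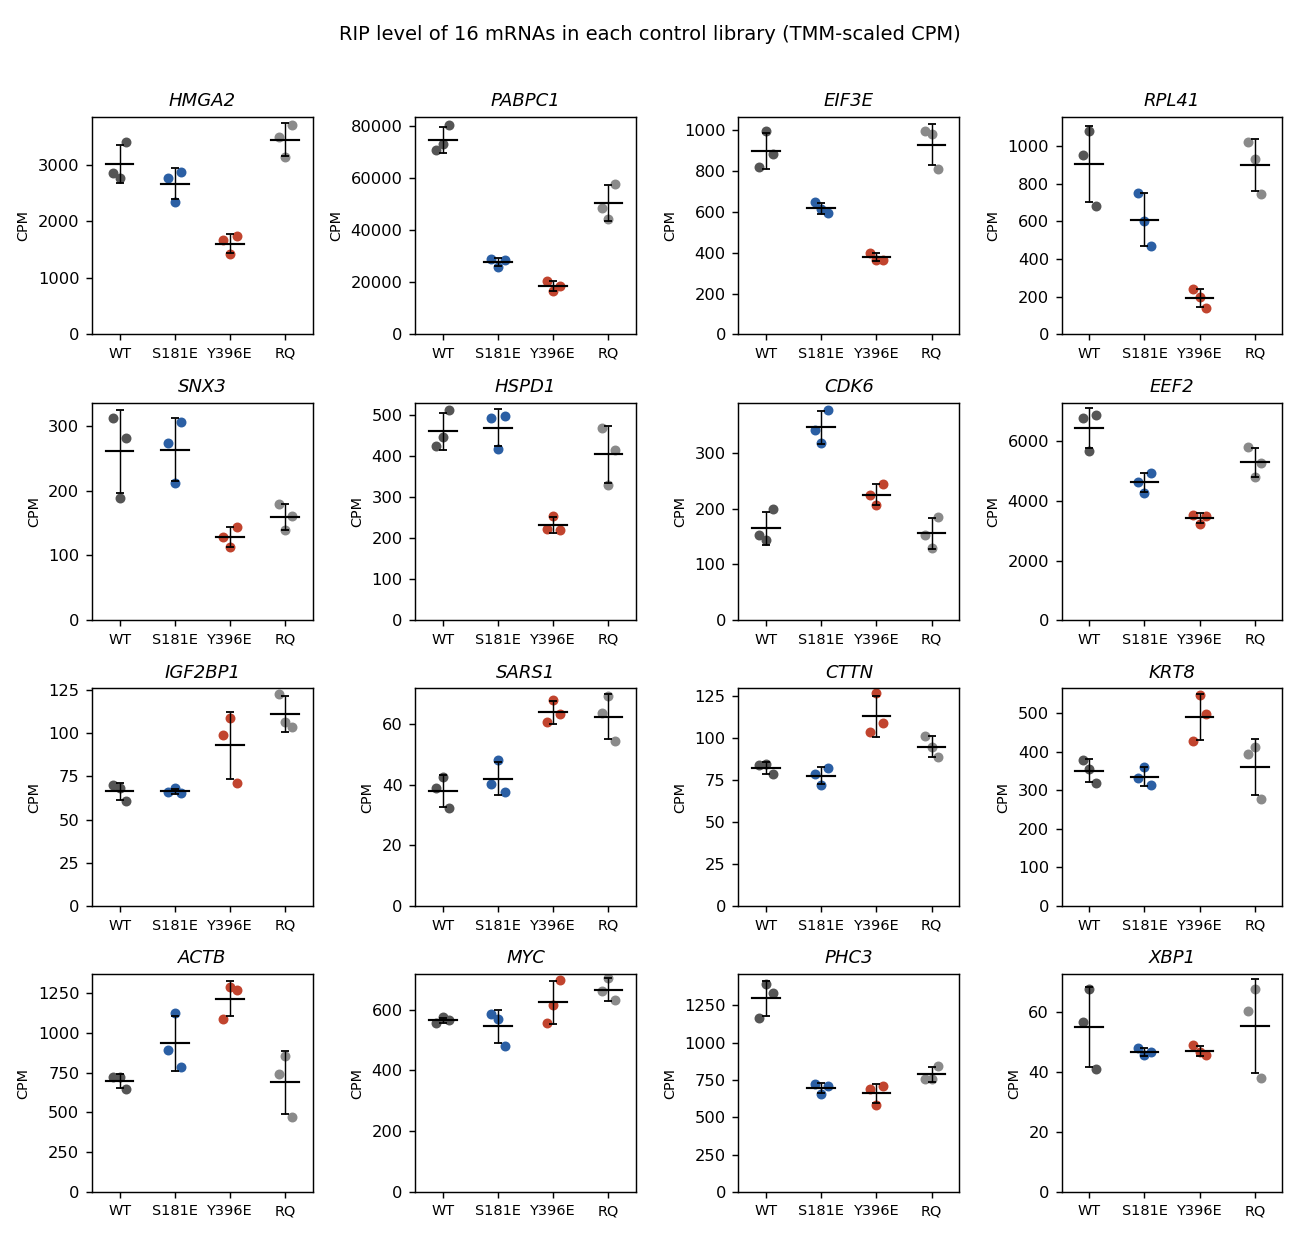
RIP level (CPM, linear axes from 0) of 16 mRNAs in the control libraries of wild-type (WT), S181E, Y396E and RQ IGF2BP1, 3 libraries each; lines give the mean and bars the SD. HMGA2, PABPC1, EIF3E, RPL41, SNX3 and HSPD1 were lower in every Y396E library than in any S181E library, whereas XBP1 and PHC3 overlapped.

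PABPC1, the cytoplasmic poly(A)-binding protein, was the most abundant mRNA that differed. It was recovered at 28786, 26043 and 28719 CPM with S181E and at 20384, 16723 and 18512 CPM with Y396E, against 74889 ± 5027 CPM with wild-type. No Y396E library reached the lowest S181E library (log2 fold change -0.58 ± 0.11, adjusted p = 0.00319). Both mutants were lower than wild-type, by a log2 fold change of -1.47 for S181E and -2.05 for Y396E. Of the 26 tested genes for poly(A)-binding proteins, their partners and deadenylases, PABPC1 and the deadenylases CNOT6 and CNOT7 were lower. They made up 11.5% of the list, beside 7.24% of all genes, and none was higher (median log2 fold change -0.08). CNOT6 was at 143 to 157 CPM in S181E and at 99.9 to 113 CPM in Y396E (-0.51 ± 0.11, adjusted p = 0.00446).

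The translation machinery held both directions. EIF3E, a subunit of the initiation factor eIF3, stood at 648, 614 and 594 CPM in S181E and at 399.7, 365 and 366 CPM in Y396E. The Y396E values lay far below the S181E range (log2 fold change -0.71 ± 0.10, adjusted p = 0.00034), and wild-type was higher than both at 899.5 CPM. EIF2AK1, the heme-regulated eIF2α kinase, was at 1203, 1104 and 1483 CPM in S181E and at 807, 684 and 901 CPM in Y396E (-0.66 ± 0.15, adjusted p = 0.00706). EIF2A, an alternative initiator tRNA carrier, was at 162 to 165 CPM in S181E and at 124 to 138 CPM in Y396E (-0.31, adjusted p = 0.0209), a call lost with total counts (-0.20, adjusted p = 0.106) and with an adjustment for GC content (-0.11, adjusted p = 0.507). In all, 6 of 47 initiation factors were lower (12.8%, beside 7.24% of all genes) and 1 was higher (2.13%, beside 3.81%), around a median of 0.08.

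Among 6 elongation factors, EEF2 was lower and EEF1A2 was higher (each 16.7%, beside 7.24% and 3.81% of all genes). EEF2, the translocase of the ribosome, was at 4649, 4276 and 4937 CPM in S181E and at 3529, 3218 and 3486 CPM in Y396E. The ranges were well apart (log2 fold change -0.43 ± 0.09, adjusted p = 0.00521). EEF1A2, a tissue-restricted form of the tRNA-delivering factor, was at 61.4 to 68.0 CPM in S181E and at 85.4 to 105 CPM in Y396E (0.53 ± 0.13, adjusted p = 0.0134), which became 0.23 (adjusted p = 0.181) with the GC adjustment.

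RPL41, which encodes the smallest ribosomal protein, had the lowest fold change of all genes tested. It was at 754, 603 and 471 CPM in S181E and at 239.6, 197 and 141 CPM in Y396E, and in wild-type at 906 ± 203 CPM. In each replicate number the Y396E value was below the S181E value and all 3 lay below the S181E range (log2 fold change -1.65 ± 0.22, 3.14-fold, adjusted p = 0.000121). RPL41 has near-identical processed copies, and reads that fit several places were not counted, so its counts are uncertain. RPL29, a large-subunit protein with such copies too, was at 577 to 729 CPM in S181E and at 377 to 488 CPM in Y396E (-0.57 ± 0.12, adjusted p = 0.00522). These were the only 2 of 79 cytosolic ribosomal protein genes called (2.53%, beside 7.24% of all genes called lower), and the median of the list was 0.11.

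The most changed genes were chosen by this contrast, so their control values are given as a description. The 12 lowest held RPL41, SNX3, HSPD1, PRKAR2B, FAM111B, DBF4, POLR3F, MRPL18, POPDC3, PLPP6, E2F5 and MAP2. SNX3, a sorting nexin of the retromer route, was at 274, 211 and 306 CPM in S181E and at 129, 112 and 143 CPM in Y396E (log2 fold change -1.03 ± 0.20). HSPD1, the mitochondrial chaperonin, was at 494, 417 and 498 CPM in S181E and at 222, 255 and 219.6 CPM in Y396E (-1.01 ± 0.12). Both mRNAs were close to wild-type in S181E, at wild-type means of 261 and 461 CPM, and low in each Y396E library.

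In contrast, several of the lowest genes had their highest level in S181E. PRKAR2B, a regulatory subunit of protein kinase A, was at 82.1, 76.0 and 99.0 CPM in S181E and at 46.6, 36.9 and 44.6 CPM in Y396E. Wild-type, at 51.7 CPM, lay near Y396E, and S181E was higher than wild-type (log2 fold change 0.69, adjusted p = 0.00236). DBF4, the activator of the replication kinase CDC7, was at 74.3 to 99.5 CPM in S181E, at 41.9 to 49.2 CPM in Y396E and at 61.3 CPM in wild-type. POLR3F, a subunit of RNA polymerase III, was at 51.1 to 67.5 CPM and 23.8 to 39.9 CPM, respectively. MRPL18, a mitochondrial ribosomal protein, had the narrowest spread of the 12 in Y396E relative to its level, with 102, 107 and 95.6 CPM in S181E against 54.1, 52.4 and 51.4 CPM.

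The 12 highest, among them EPHA1, SPTB, TST, HARS2, CILP2, YJU2B, CLCN7, C1orf216, CDCA3, DAPK3 and CACTIN, were weakly recovered. EPHA1, an ephrin receptor, was at 8.85, 3.93 and 7.96 CPM in S181E and at 16.6, 12.1 and 12.9 CPM in Y396E (log2 fold change 1.01 ± 0.22). HARS2, the mitochondrial histidyl-tRNA synthetase, was at 10.7, 5.60 and 10.1 CPM in S181E and at 17.0, 18.3 and 15.6 CPM in Y396E (0.95 ± 0.20). In both genes S181E replicate 2 was the lowest library. CDCA3, a trigger of mitotic entry, was at 6.32 to 8.33 CPM in S181E and at 11.5 to 14.3 CPM in Y396E, with wild-type at 7.05 CPM.

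The fold changes behind that choice came from the control libraries. The libraries of arsenite-treated cells entered it only through the shared filter, scaling and estimate of the spread. In the arsenite libraries, 10 of the 12 lowest genes were called lower in Y396E, where 9.5% of all genes were. Of the 12 highest genes none was called higher in arsenite, where 2.93% of all genes were, although all 12 had a log2 fold change above 0. With each control replicate left out in turn, 9 of the 12 lowest and 5 of the 12 highest kept their call in every fit.

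The 13 mRNAs encoded in mitochondrial DNA had a median log2 fold change of -0.39 with a range of -0.53 to -0.08. One of them, MT-CO2, was called lower, 7.69% of the list beside 7.24% of all genes. MT-CO2, a cytochrome oxidase subunit, was at 11304, 9865 and 10923 CPM in S181E and at 8739.8, 6307 and 7881 CPM in Y396E. All Y396E libraries were below the S181E range (-0.48, adjusted p = 0.0175). The 62 nuclear genes of the respiratory chain had a median of 0.12, and only NDUFA12, a complex I subunit, was called, 1.61% of that list (22.6 CPM in Y396E and 39.3 CPM in S181E, log2 fold change -0.79, adjusted p = 0.00726). Of 61 mitochondrial ribosomal proteins 1 was higher (1.64%, beside 3.81% of all genes) and 4 were lower (6.56%, beside 7.24%). MRPL18, MRPS21 and MRPL30 were among the latter, and the list median was 0.14.

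Readers and writers of N6-methyladenosine (m6A), the mRNA modification that IGF2BP proteins have been linked to, were called lower in 4 of 17 cases (23.5%, beside 7.24% of all genes) and higher in 1 (5.88%, beside 3.81%), with a median log2 fold change of -0.23. The median 3′UTR GC content of this list was 35.0%, beside 42.6% over all genes. CBLL1, a component of the m6A writer complex, was at 278, 270.0 and 307 CPM in S181E and at 202, 157 and 209 CPM in Y396E. YTHDC1, the nuclear m6A reader, was at 29.6, 22.2 and 31.3 CPM in S181E and at 17.3, 15.0 and 14.5 CPM in Y396E. The groups were apart in both (log2 fold change -0.58, adjusted p = 0.000835, and -0.82, adjusted p = 0.00268, respectively). FTO, an m6A demethylase, was lower as well (-0.33, adjusted p = 0.0366), whereas YTHDF1, a cytoplasmic reader, was higher by the smallest margin (0.27, adjusted p = 0.0429).

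RAB GTPases, the switches of vesicle traffic, had 5 of 37 members lower (13.5%, beside 7.24% of all genes), none higher and a median of -0.16. RAB7A of late endosomes was at 486, 489 and 498 CPM in S181E and at 329, 323 and 329 CPM in Y396E, with a narrow spread on either side (log2 fold change -0.58, adjusted p = 0.00186). RAB18 of lipid droplets and the endoplasmic reticulum was at 92.7 to 119.7 CPM in S181E and at 59.6 to 64.2 CPM in Y396E (-0.79, adjusted p = 0.000406). RAB5A of early endosomes and RAB6A of the Golgi had log2 fold changes of -0.60 and -0.48, and RAB6A replicate 3 of Y396E, at 304 CPM, came closest to the S181E range of 334 to 367 CPM.

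Polycomb genes, which encode repressors of developmental genes, had 6 of 31 members lower (19.4%, beside 7.24% of all genes) and 1 higher (3.23%, beside 3.81%) around a median of 0.03. PCGF6, PCGF5 and RYBP of the PRC1 complexes had log2 fold changes of -0.60, -0.54 and -0.50. SUZ12, the core of PRC2, was at 94.4, 78.0 and 122 CPM in S181E and at 74.7, 65.3 and 69.8 CPM in Y396E, a difference past the threshold (-0.47, adjusted p = 0.0133). The groups did not overlap, although S181E replicate 2 was close to Y396E replicate 1. PHC3, another PRC1 component, was at 658 to 724 CPM in S181E and at 585 to 706 CPM in Y396E (-0.07, adjusted p = 0.617), both below the wild-type level of 1298 ± 118 CPM.

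Chaperone and proteasome genes were split. Of 15 heat shock chaperones HSPD1 and its partner HSPE1 were lower (HSPE1 log2 fold change -0.46, adjusted p = 0.0225) and HSPA4, a co-factor of HSP70, was higher (0.39, adjusted p = 0.0111), with a list median of 0.13. The lower ones were 13.3% of the list, beside 7.24% of all genes, and the higher one 6.67%, beside 3.81%. Of 31 proteasome subunits 3 were higher (9.68%) and 2 lower (6.45%), with a median of 0.23. PSMD5, an assembly chaperone of the 19S base, was at 146, 114 and 147 CPM in S181E and at 84.5, 78.3 and 94.6 CPM in Y396E. All Y396E values were below the S181E range (-0.65, adjusted p = 0.00166). Among 22 genes of the unfolded protein response and of ER chaperones, CANX and SEL1L were lower (9.09%) and DNAJB11 was higher (4.55%). XBP1, the spliced transcription factor of that response, was at 48.0, 45.5 and 46.6 CPM in S181E and at 48.8, 46.5 and 45.7 CPM in Y396E (0.02, adjusted p = 0.951).

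Of 17 aminoacyl-tRNA synthetases 3 were higher (17.6%, beside 3.81% of all genes) and 1 was lower (5.88%, beside 7.24%), with a median of 0.08. SARS1, which charges tRNA with serine, was at 40.4, 48.0 and 37.7 CPM in S181E and at 60.5, 67.8 and 63.2 CPM in Y396E. The groups were clearly apart (log2 fold change 0.61 ± 0.14, adjusted p = 0.0073). WARS1 and VARS1 had log2 fold changes of 0.41 and 0.44. GARS1, for glycine, went the other way, from 96.6 to 109.9 CPM in S181E to 75.9 to 89.2 CPM in Y396E (-0.35, adjusted p = 0.0341), a call lost with total counts (adjusted p = 0.108).

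Of 7 tested markers of colon epithelium 2 were higher (28.6%, beside 3.81% of all genes), KRT8 and CLDN4, and none was lower (median 0.38). Of 34 actin cytoskeleton genes 2 were higher (5.88%), CTTN and ZYX. As many were lower (5.88%, beside 7.24% of all genes), ARPC5 and CAPZA1, and the median was 0.02. Of 15 integrins and laminins 1 was higher (6.67%), ITGA3, and of 16 ATF4 targets 2 were higher (12.5%), SLC7A5 and CEBPB. KRT8, a keratin of simple epithelia, was at 333, 361 and 313 CPM in S181E and at 428, 547 and 497 CPM in Y396E. CTTN, the actin-branch stabiliser cortactin, was at 78.2, 72.0 and 82.2 CPM in S181E and at 104, 127 and 109 CPM in Y396E. Both mRNAs were higher in every Y396E library (log2 fold change 0.56, adjusted p = 0.00656, and 0.55, adjusted p = 0.00219). CLDN4, a tight junction claudin, ITGA3, an integrin chain, and ZYX, a focal adhesion protein, had log2 fold changes of 0.38, 0.33 and 0.35. SLC7A5, a large amino acid transporter and ATF4 target, was at 896 to 959.8 CPM in S181E and at 1073 to 1303 CPM in Y396E (0.36, adjusted p = 0.00656). With the GC adjustment KRT8 and CTTN kept their call (0.34 and 0.43), whereas CLDN4, ITGA3, ZYX and SLC7A5 lost it, at 0.14, 0.09, 0.07 and 0.12.

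The remaining lists had few calls or none. In the microRNA silencing machinery (13 genes), stress granule proteins (21), replication-dependent histones (37), cholesterol synthesis (19), NRF2 targets and metallothioneins (17) and immediate early genes (17) no gene passed the test in either direction. The medians of these lists ran from -0.09 for stress granule proteins to 0.20 for histones. Of 187 ZNF genes 5 were higher (2.67%, beside 3.81% of all genes) and 12 lower (6.42%, beside 7.24%), with a median of -0.09. Of 28 cyclins and their kinases only CDK6, the G1 kinase, was called (3.57%). It was at 342, 318 and 378 CPM in S181E and at 225, 206 and 244 CPM in Y396E, with wild-type below both at 165 CPM. S181E was higher than wild-type by a log2 fold change of 1.03, Y396E by 0.42, and the difference between the mutants was -0.61 (adjusted p = 0.00428). LIPA, a lysosomal lipase, was at 22.5 to 30.0 CPM in S181E and at 24.3 to 26.9 CPM in Y396E (-0.02, adjusted p = 0.955).

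The called genes differed in base composition and in 3′UTR length, neither of which entered the choice of genes. The median GC content of the 3′UTR was 55.6% in the genes that were higher in Y396E, 35.6% in those that were lower and 43.0% in those not called. The median 3′UTR length was 1019, 2591.5 and 1484 bases, respectively. Across 8651 genes with a value, the log2 fold change had a Spearman correlation of 0.52 with 3′UTR GC content, and across 8734 genes one of 0.51 with coding GC content. The correlation with 3′UTR length was -0.41 across 8714 genes, and those with coding length and exon number were -0.02 and 0.00. All points in these correlations share the same 6 libraries and genes are not independent replicates, so no test is attached.

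By quartile of 3′UTR GC content, the median log2 fold change went from -0.17 in the lowest quartile through -0.12 and 0.05 to 0.24 in the highest. In the lowest quartile 317 genes were lower (14.7%) and 12 higher, and in the highest 15 were lower and 229 higher. Several lists above had a median 3′UTR GC content under the 42.6% of all genes. It was 35.0% for m6A genes, 36.2% for the poly(A) list, 40.3% for Polycomb, 40.7% for RAB genes and 40.0% for initiation factors. The aminoacyl-tRNA synthetases, with 5.88% lower, stood at 37.8%. Shares of called genes in the lists were not compared at matched GC content. By quartile of 3′UTR length the medians were 0.18, 0.06, -0.07 and -0.15, from shortest to longest. The GC quartiles were also crossed with the length quartiles. Genes of the lowest GC quartile had a median of 0.04 with the shortest 3′UTRs and -0.27 with the longest, where 121 of 524 genes were lower and 1 higher. In the highest GC quartile the medians with the shortest and the longest 3′UTRs were 0.28 and 0.20. On the GC-rich chromosome 19 lay 55 of the 333 genes higher in Y396E (16.5%) and 7 of the 632 lower ones (1.11%). Of the 7769 genes not called, 520 lay there (6.69%). On the GC-poor chromosome 4 lay 1 higher gene, 45 lower ones and 264 of those not called.

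Short motifs of the 3′UTR were read across genes in the same way, and their own relation to base composition was not tested. The density of ATTTA, the core of AU-rich elements, had a Spearman correlation of -0.38 with the log2 fold change across 8484 genes with at least 100 bases of 3′UTR. The density of CATA, CATC or CATT together, the CAU-type motif of IGF2BP proteins, gave -0.46. GGAC, the core of the m6A motif, gave 0.34, and ACAC, a CA-rich element bound by KH domains, gave -0.04. All were counted on the mRNA strand with overlapping matches. For the let-7 seed match shown above, the 7671 genes without a site had a median log2 fold change of 0.02, the 926 with 1 site -0.06 and the 137 with at least 2 sites -0.11, and 7.1%, 8.42% and 6.57% of them were lower. The genes with sites also had longer 3′UTRs, with medians of 3031 bases for 1 site and 5193 bases for at least 2, against 1357 bases without.

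**Figure D2:**
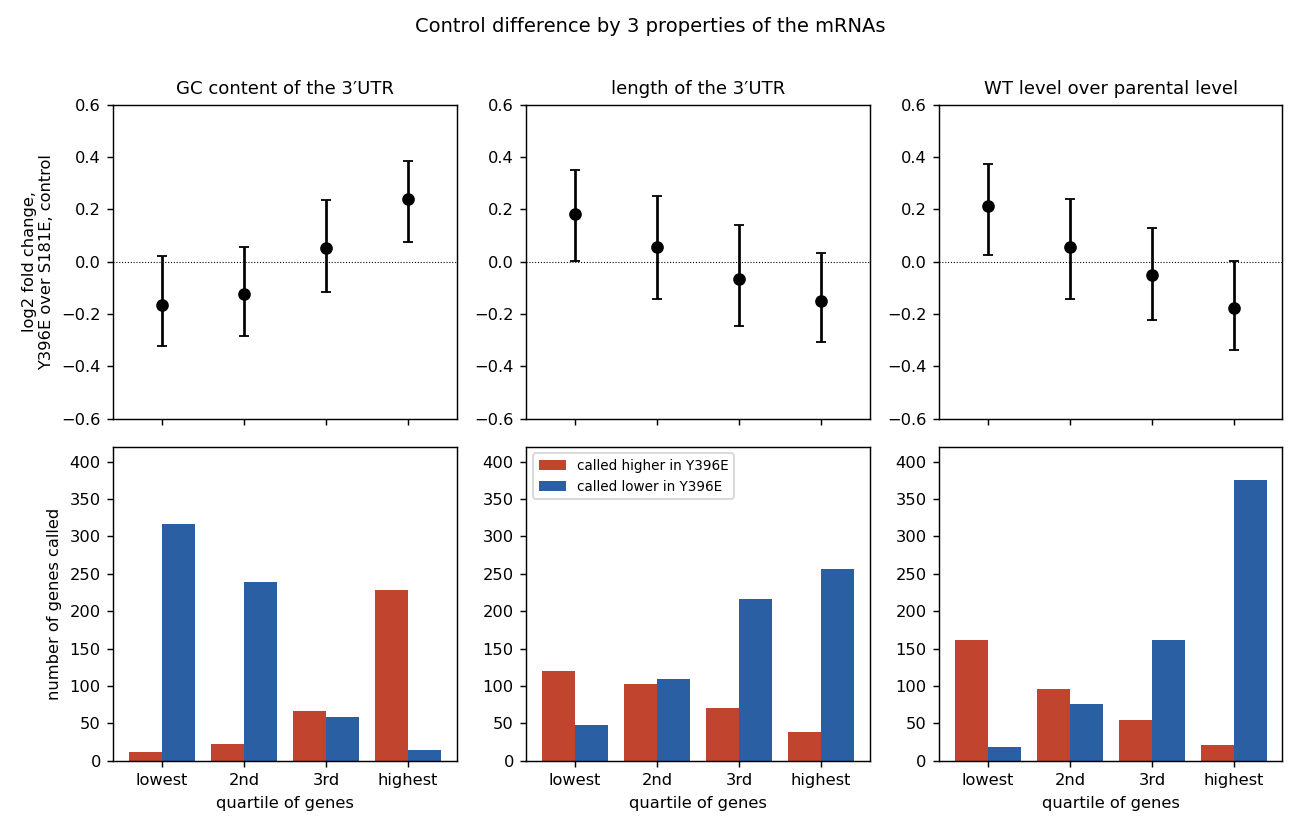
Upper row, median log2 fold change (points) with the 25th and 75th percentiles (bars) of Y396E over S181E in control, by quartile of 3′UTR GC content, 3′UTR length and wild-type control level over the parental arsenite level. Lower row, number of genes called in each quartile, which goes from 12 higher and 317 lower in the lowest GC quartile to 229 higher and 15 lower in the highest.

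The shift with base composition was also read in each library on its own, as the median log2 deviation of the highest GC quartile minus that of the lowest. It was -0.21, -0.06 and -0.27 in the S181E libraries and 0.20, 0.31 and 0.12 in the Y396E libraries. The mutants did not overlap, with an exact permutation p of 0.1, the smallest that 3 against 3 libraries can give. Each same-numbered pair had the higher value in Y396E, by 0.42, 0.36 and 0.39 (exact paired permutation p = 0.25, the smallest possible). The index summarises the trend already seen across genes in the same 6 libraries. Wild-type libraries stood at 0.23, -0.03 and -0.08 and RQ libraries at 0.00, 0.07 and -0.21, so those groups spanned much of the range between the mutants. For 3′UTR length the index was 0.12, -0.09 and 0.36 in S181E and -0.18, -0.37 and -0.01 in Y396E, and here the ranges overlapped (exact permutation p = 0.2). By replicate number the Y396E library was lower in each of the 3 pairs, with differences of -0.30, -0.28 and -0.37 (exact paired permutation p = 0.25, the smallest that 3 pairs can give). In both groups replicate 3 had the highest length index and replicate 2 the lowest.

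When log2 levels were adjusted in each library for transcript GC content, 75 genes were called higher and 209 lower. Of these, 46 and 173 were also called without that adjustment. All of the 12 lowest genes and 3 of the 12 highest kept their call. Of the genes described above, CNOT6, CNOT7, HSPE1, CANX, SEL1L, PCGF5, RYBP, SUZ12, RAB6A, MT-CO2, MRPL30, FTO, YTHDF1, VARS1 and GARS1 also lost their call. RPL41, SNX3, HSPD1, EIF3E and YTHDC1 were lower with and without it. What produced the GC shift between the libraries was not tested.

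**Figure D3:**
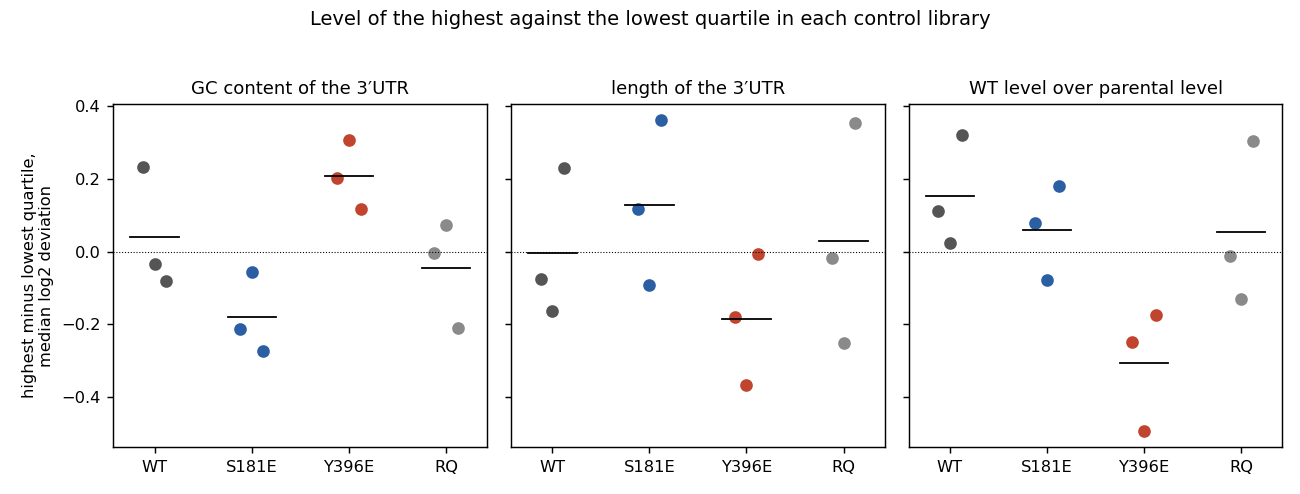
Median log2 deviation of the highest minus the lowest quartile of genes in each of the 12 control libraries of the tagged lines (points, lines are group means), for 3′UTR GC content, 3′UTR length and the wild-type control level over the parental arsenite level. The GC index was above 0 in all Y396E libraries and below 0 in all S181E libraries, and the third index was lower in each Y396E library than in any S181E library.

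Whether the mRNAs that the tagged proteins enriched over untagged cells were shifted depended on the parental library set beside them. Of 978 genes whose mean over the 12 control libraries of the tagged lines was at least 4-fold over the parental arsenite library, 219 were lower in Y396E (22.4%, beside 7.24% of all genes) and 6 were higher (0.613%, beside 3.81%), with a median log2 fold change of -0.22. Of 1726 genes at or below both parental libraries, 24 were lower (1.39%) and 114 higher, with a median of 0.18. By median, the ratio of the wild-type control level to the parental arsenite level was 0.59 in genes called higher. This ratio was 2.97 in those called lower and 1.08 in those not called. For the mean of the 6 libraries over the parental control level, the medians were 1.53, 5.66 and 3.47, respectively. The parental control library had only 1238013 counts in all, against 18942497 in the parental arsenite library. Over the parental control library, whose treatment matched, 4264 genes reached 4-fold. Of these, 357 were lower (8.37%) and 113 higher (2.65%), close to the shares over all genes, and their median was -0.05, which was 0.06 with total counts and -0.20 with TMM from background genes. Each parental level rests on 1 library.

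Read against the parental arsenite library, the order of the shift held within base composition. By quartile of the wild-type control level over the parental arsenite level, medians went from 0.21 through 0.06 and -0.05 to -0.18, with 19 genes lower in the first quartile and 376 in the last. In the lowest GC quartile the genes with the lowest and the highest such ratio had medians of 0.03 and -0.30, and 167 of the 536 latter genes were lower and none higher. In the highest GC quartile the corresponding medians were 0.34 and 0.08. The index of this ratio was 0.08, -0.08 and 0.18 in the S181E libraries and -0.25, -0.50 and -0.17 in the Y396E libraries (exact permutation p = 0.1, exact paired permutation p = 0.25, each the smallest possible). The mean of the 6 libraries over the parental control level, whose treatment matched, gave a less regular order. Its quartile medians were 0.13, -0.007, -0.004 and -0.09, with 57, 197, 135 and 243 genes lower. Its Spearman correlation with the log2 fold change was -0.24, beside -0.47 for the ratio to parental arsenite.

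Wild-type levels placed the mutants on either side for many of the called genes. Of the 632 genes lower in Y396E, the wild-type mean lay between the mutants for 352 (55.7%), above both for 202 (32.0%) and below both for 78 (12.3%). Of the 333 genes higher in Y396E, it lay between them for 166 (49.8%), below both for 123 (36.9%) and above both for 44 (13.2%). HMGA2, PABPC1, EIF3E and RPL41 belonged to those with wild-type above both mutants, and CDK6 to those with wild-type below both. For genes not called it lay between them in 23.9% of cases, where the mutant means were closer to each other. Against wild-type itself, 1154 genes were higher (13.2%) and 1363 lower (15.6%) in Y396E, and 876 were higher (10.0%) and 881 lower (10.1%) in S181E. Both counts share the wild-type libraries.

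The same contrast in arsenite-treated cells used 6 other libraries of the same fit, with its shared filter, scaling and estimate of the spread. There, 256 genes were higher in Y396E and 830 were lower. With the replicate block these counts were 1651 and 1770, and without single libraries they ran from 42 to 229 and from 289 to 639, lowest without S181E replicate 1. Of the 333 genes higher in control, 325 had a log2 fold change above 0 in arsenite and 105 were called higher (31.5%), beside 2.93% of all genes. Of the 632 genes lower in control, 617 had one below 0 and 369 were called lower (58.4%), beside 9.5% of all genes. Among the 7769 genes not called in control, 78.2% also had the same sign in both treatments. The Spearman correlation of the log2 fold change with 3′UTR GC content was 0.56 in arsenite, beside 0.52 in control. How much of the agreement follows this shared shift was not tested. No gene was called in opposite directions. HMGA2 was at 1385, 1165 and 1347 CPM in S181E and at 664, 595 and 721 CPM in Y396E after arsenite (log2 fold change -0.93), again without overlap. PABPC1, EIF3E, RPL41, SNX3, HSPD1 and RAB18 were called lower in both treatments. The test of the difference between the treatments called 0 genes higher and 6 lower (0.0687%), and 402 genes had an unadjusted p under 0.05.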

How the data were processed

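The authors deposited whole-number counts per gene, which they made by trimming 100-base single reads, aligning them to hg38 with STAR 2.7.11b and counting with featureCounts of Subread 2.0.6 on the GENCODE 46 annotation, on the reverse strand per the file headers. Reads that fit several places were not counted under these settings. Symbols came from GENCODE 44, with 545 of 63086 gene IDs unmatched. The 6 libraries of this comparison held 23063983 to 39499274 counts, and no pair of libraries had identical counts. Immunoprecipitation used RFP-Trap beads, followed by rRNA depletion and a directional library kit.

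Protein-coding counts of the 23 mCherry libraries were TMM-scaled, kept where the CPM exceeded 10 in 12 or more of them (8734 genes), and fitted in 1 model of 8 groups with edgeR 4.0.16 (glmQLFTest, R 4.3.3, Benjamini-Hochberg over all genes). A call needs an adjusted p under 0.05 and a change over 20%. Printed CPM use TMM over all 25 libraries. Named genes were the 12 highest and 12 lowest called genes without overlap, genes the study names, the IGF2BP genes, up to 4 called members per list (filled to 2 by abundance) and the extremes of the interaction. A few genes that these rules name are not reported here. One of the genes the study names, CCDC127, did not pass the CPM filter, at 10.3 to 12.5 CPM in S181E and 11.2 to 12.3 CPM in Y396E. The members, lists and rules were chosen with earlier results of these data known.

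Same-numbered libraries of the mutants deviated together in control (r = 0.118, 0.455 and 0.562 over genes), so the numbers were taken to pair them, a pairing that comes from the data and not from the labels. In arsenite the values were 0.049, 0.261 and 0.271. UTRs and base composition came from the canonical transcript of each gene, and 3′UTRs under 50 bases had no GC value. Tested on simulated counts of this contrast (8734 genes), the fit recovered 22.4% of 67 genes changed by 0.5 on the log2 scale and 97.0% of 66 changed by 1, with 7 false calls among 152. The simulated libraries held no GC shift between the mutants and no deviation shared by replicate number. Their count of false calls therefore need not hold for the real libraries. Alternatives were DESeq2 1.42.0, other scalings and filters, glmTreat, a GC adjustment chosen after seeing the data, the replicate block and leaving out each library. Permutation tests were two-sided.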

Additional observations from a re-analysis of the deposited data

Results flagged for a closer look

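In 6 genes the difference between Y396E and S181E itself differed between arsenite and control by the interaction test of edgeR, all towards lower levels in Y396E after arsenite. CCNA2, the S and G2 phase cyclin, had an interaction of -0.98 ± 0.16 on the log2 scale (adjusted p = 0.0279). After arsenite it stood at 431, 358 and 378 CPM with S181E and at 222, 201 and 206 CPM with Y396E, whereas the control values overlapped (log2 fold change 0.13). SERPINE2, a secreted protease inhibitor, had an interaction of -0.81 ± 0.14 (adjusted p = 0.0279). TMEM123, a membrane receptor of cell death, had one of -0.73 ± 0.13 (adjusted p = 0.0387), with 489.8 to 581 CPM in S181E and 243 to 264 CPM in Y396E after arsenite. It was already lower in control (log2 fold change -0.32, adjusted p = 0.0333), where the groups overlapped. UBE2D3, a ubiquitin-conjugating enzyme, had an interaction of -0.67 ± 0.12 (adjusted p = 0.0364), and SERINC3, a membrane protein that restricts retroviruses, had one of -0.66 ± 0.13 (adjusted p = 0.0419). MAPKAP1, the SIN1 subunit of mTORC2, had an interaction of -0.64 ± 0.12 (adjusted p = 0.0387). The sign was negative in every alternative run, and the adjusted p of CCNA2 ran from 5.7e-05 to 0.235, with 12 of 25 settings past the threshold. Those of the other 5 genes reached highest values of 0.292 to 0.766.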

How the results depend on the processing

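Counts are given as higher and lower in Y396E. In control they were 333 and 632, and became 716 and 345 with total counts, 71 and 988 with TMM from background genes, 8 and 60 with glmTreat, 113 and 357 with genes enriched 4-fold alone, 75 and 209 with the GC adjustment, and 132 and 238 with only the libraries compared. They were 1272 and 1146 with the replicate block. With filterByExpr 221 were higher. Without single libraries they ran from 51 to 450 and from 136 to 766. In arsenite 256 and 830 became 3 and 1463 with TMM from background genes, 0 and 179 with glmTreat, 14 and 263 with genes enriched 4-fold alone, 53 and 382 with the GC adjustment, 1573 and 1722 with only the libraries compared, and 1651 and 1770 with the replicate block. Higher genes numbered 442 with the DESeq2 Wald test, 123 with filterByExpr and 809 with the GC adjustment and replicate block. Without single libraries they ran from 42 to 229 and from 289 to 639. For the interaction, 0 and 6 became 0 and 2 with DESeq2 size factors, 0 and 13 with total counts, 1 and 25 with the Wald test, 4 and 62 with the replicate block and 4 and 49 with the block and GC adjustment. The lower count was 3 with all biotypes and with genes enriched 4-fold alone, 0 with TMM from background genes, glmTreat, filterByExpr and only the libraries compared, and 0 to 2 without single libraries. The median log2 fold change of genes enriched 4-fold over the parental control, -0.05, was 0.059 with total counts, -0.20 with TMM from background genes and -0.22 over the parental arsenite library. The cause of these changes was not tested. Some of the fits also held fewer genes or libraries.

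Of the 95 named genes called in control, none changed sign. The call was lost for 63 without Y396E replicate 2, 52 with the GC adjustment, 48 with only the libraries compared, 21 with TMM from background genes, 19 with filterByExpr, 13 with total counts, 5 with the DESeq2 Wald test and 2 with DESeq2 size factors. The replicate block lost none and added 9 calls among the other named genes. With each library left out in turn, 31 kept the call in every fit. Among genes described as not called, ACTB passed the threshold with the replicate block (0.42) and without S181E replicate 2 (0.54), and IGF2BP2 with the block (-0.34) and with the block and GC adjustment (-0.35). Before the TMM scaling 3 counts are 0.121 to 0.196 CPM, and whether depth limited the weakly recovered genes was not tested. Differences of 0.5 on the log2 scale were mostly missed on simulated counts.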
